A study of Mus musculus with 6 samples.

Results

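Lysophospholipid signalling genes were taken as 10 rows of a table of exon counts from primary mouse hepatic stellate cells, out of 24940 genes in the table: the lysophosphatidic acid (LPA) receptor genes Lpar1, Lpar4 and Lpar6, the sphingosine 1-phosphate (S1P) receptor genes S1pr1, S1pr2 and S1pr3, and the enzyme genes Enpp2, Liph, Sphk1 and Sgpl1. They were found by gene symbol. The choice was made with their values in the comparison of forskolin with vehicle known, so that comparison is described for them without a test.

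Hepatic stellate cells lie beside the liver's sinusoids and store vitamin A. The 3 forskolin libraries came from cells given 5 µM forskolin, which switches on adenylyl cyclase so that cyclic AMP accumulates, and the 3 vehicle libraries from cells given an equal volume of dimethyl sulfoxide (1:1000). Both groups were wild-type cells of female C57BL/6JBomTac mice (also written C57BL6/JBomTac in the labels), treated 2 days after isolation, with the medium changed after 3 h and RNA taken 21 h later. In bulk RNA, fewer cells of a type and less RNA per cell cannot be told apart. The labels name the libraries A, B and C in each group and do not say whether these were separate animals or cultures, so a p-value here weighs a difference against the scatter of these 6 libraries, and that scatter may be technical.

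LPA and S1P are lipid mediators that act outside the cell through G protein-coupled receptors. LPA is made by autotaxin, the secreted product of Enpp2, and by the phosphatidic acid-selective phospholipase that Liph encodes. S1P is made inside cells by sphingosine kinases, among them the product of Sphk1, is exported, and is broken down irreversibly by the lyase that Sgpl1 encodes. Receptors of both lipids signal through several classes of G protein in differing mixtures, and in stellate cells they are known for effects on contraction, migration and growth.

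Liph differed most between the groups, and the receptor genes differed in both directions. Liph was 17.3-fold higher with forskolin in the edgeR fit. S1pr1 and S1pr3 were 2.26-fold and 1.54-fold higher, while Lpar1 and Lpar6 stood at 0.709 and 0.708 of their vehicle level. S1pr2, Sphk1, Sgpl1 and Lpar4 were at 0.844 to 0.917 of their vehicle levels. Enpp2 was barely counted in either group.

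The promoter windows of Liph and S1pr2 are shown because Liph had the largest difference of the 10 genes and the S1pr2 window held the full motif searched. The windows run from 250 bases before to 50 bases after the start of the counted transcript, in RefSeq's sequence of GRCm38.p6 (the mm10 build), on the minus strand of both genes: chr16:21995493-21995792 for Liph and chr9:20976744-20977043 for S1pr2. Capitals mark the cyclic AMP response element, the site bound by the CREB family of transcription factors, where these letters occur.
Liph: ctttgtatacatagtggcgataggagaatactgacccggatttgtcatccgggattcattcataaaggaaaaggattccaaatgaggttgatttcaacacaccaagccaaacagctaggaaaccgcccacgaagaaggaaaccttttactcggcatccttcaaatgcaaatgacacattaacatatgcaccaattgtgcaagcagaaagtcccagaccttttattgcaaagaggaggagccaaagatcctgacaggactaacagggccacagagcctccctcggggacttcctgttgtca
S1pr2: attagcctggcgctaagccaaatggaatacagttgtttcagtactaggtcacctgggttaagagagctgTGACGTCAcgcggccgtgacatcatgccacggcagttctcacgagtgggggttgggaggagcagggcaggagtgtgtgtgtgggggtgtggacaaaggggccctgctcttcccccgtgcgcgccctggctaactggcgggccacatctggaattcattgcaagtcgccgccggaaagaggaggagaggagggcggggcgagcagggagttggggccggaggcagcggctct

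Of the 10 genes, 8 were matched to windows in the RefSeq table, 14 windows in all since some genes have several starts, and Enpp2 and S1pr1 were not. The full element, TGACGTCA, which reads the same on both strands, occurred in 1 of these 8 genes, S1pr2, its first base lying 181 bases before the start. It was found in 1.79% of 32851 windows of the same length. The shorter core TGACG, searched on both strands and contained in the full element, occurred in the windows of S1pr2 and of Sphk1 and in 20.8% of all windows. In Sphk1 it lay in 2 overlapping windows of starts 607 and 533 bases away from the start of the counted transcript, whose own window held none. Liph, the gene that differed most, had neither form in its window, and S1pr2, with the full element, stood at 0.890 of its vehicle level. A match of letters is not a bound site, and its lack in these windows says nothing of other regions.

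Depth was 10890193 to 12954310 counts per forskolin library and 13001358 to 15090262.5 per vehicle library. Levels are given as CPM, counts scaled to a common library total, and, between genes, as CPM per kilobase of exon. Of 14 stellate cell markers all passed the filter on low counts. Reln, Ecm1 and Hgf were the most abundant with forskolin, and Reln, Ecm1 and Pdgfrb with vehicle. The 7 called higher included Hgf, at 401 ± 11.7 CPM with forskolin and 198 ± 7.01 CPM with vehicle. The 5 called lower included Des, at 182 ± 20.8 and 323 ± 7.37 CPM, and Pdgfrb, at 282 ± 7.99 and 381 ± 16.6 CPM. Calls were thus made for 85.7% of these markers, beside 49.9% of all genes tested. The summed level of the 14 markers was 2903 to 2951 CPM with forskolin and 2626 to 2795 CPM with vehicle. The 8 lymphocyte markers in the table summed to 0.378 to 0.820 CPM with forskolin and 0.517 to 0.804 CPM with vehicle. The 12 markers of mesothelium and portal fibroblasts summed to 513 to 542 CPM with forskolin and 582 to 600 CPM with vehicle, mainly through Fbln2, and Gpm6a was at 0. Of 7 tested, 2 rose and 1, Fbln2, fell. Thy1 rose to 4.95 ± 1.21 CPM with forskolin, against 0.650 ± 0.145 CPM with vehicle, and Cd34 to 19.6 ± 5.36 CPM against 3.86 ± 0.212 CPM (edgeR adjusted p = 2.32e-07 and 6.11e-09). Of 12 macrophage markers 3 were tested, and the sum was 37.8 to 39.3 CPM with forskolin and 34.3 to 36.8 CPM with vehicle, Marco being at 0 throughout. The tested macrophage markers differed in direction: Cd68 and Csf1r rose to 15.8 ± 2.71 and 18.3 ± 2.16 CPM with forskolin, against 11.2 ± 1.79 and 13.2 ± 0.361 CPM with vehicle, and Lyz2 fell to 4.22 ± 0.828 CPM with forskolin, against 10.8 ± 1.67 CPM with vehicle (edgeR adjusted p = 0.00679, 0.00176 and 3.66e-06). The 12 hepatocyte markers summed to 361 to 443 CPM with forskolin and 304 to 317 CPM with vehicle, nearly all of it Trf and Ass1, and Alb averaged 0.0252 CPM with forskolin and 0 with vehicle.

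**Figure D1:**
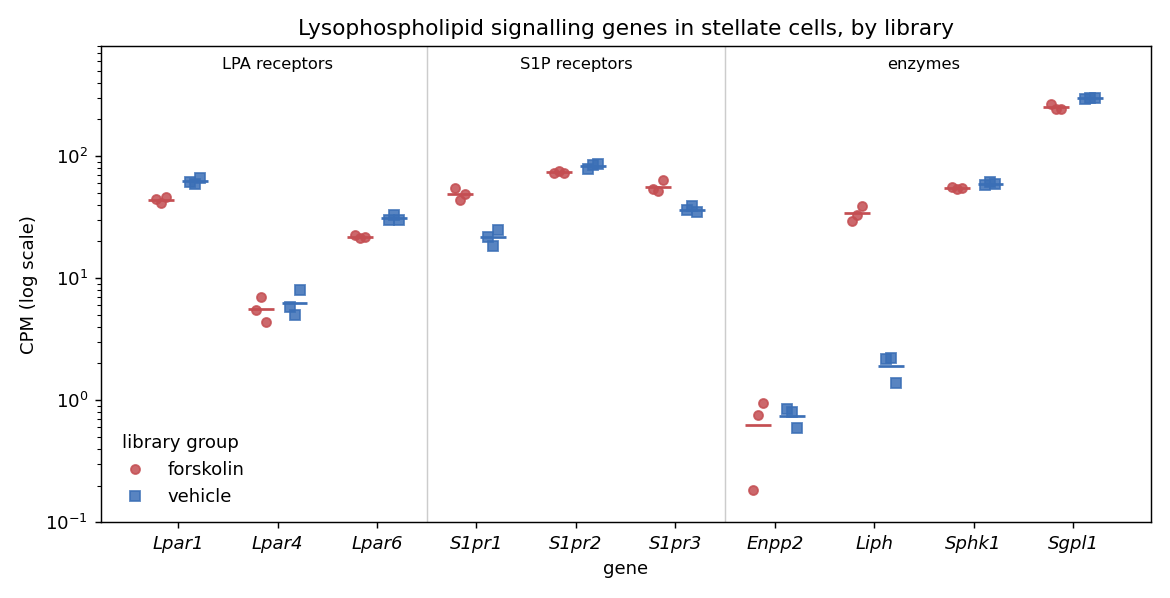
CPM on a log scale for each lysophospholipid signalling gene, with forskolin libraries as circles, vehicle libraries as squares and bars at the group means (n = 3 each). Liph separated the groups most widely, at 29.6 to 39.3 CPM with forskolin and 1.38 to 2.21 CPM with vehicle, and Lpar4 and Enpp2 were the genes whose groups overlapped.

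All 10 genes passed the filter on low counts, Enpp2 narrowly. In the fit over 13357 genes, 3 of the 10 were past the threshold and higher with forskolin (Liph, S1pr1 and S1pr3) and 4 were past it and lower (Lpar1, Lpar6, S1pr2 and Sgpl1). The same rule called 49.9% of all genes tested, 24.8% higher and 25.1% lower. The groups did not overlap for 8 of the 10 genes, against 57.3% of all genes tested. The median log2 fold change was -0.15 over the 10 genes and 0.01 over all genes tested, and the median absolute value 0.37 and 0.22. As the choice of the genes used this comparison, nothing is read from these counts. The call of S1pr2 was lost with library size alone in place of scaling factors, with log2 library size as a covariate, without vehicle B and without vehicle C.

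Among the enzymes that make LPA, Liph (chromosome 16, 21953818 to 21995542, minus strand, exons of 3789 bases in all) had 29.6, 33.2 and 39.3 CPM in forskolin A, B and C, against 2.18, 2.21 and 1.38 CPM in vehicle A, B and C. Every forskolin library was far above every vehicle library. The means were 34.0 ± 4.93 CPM with forskolin and 1.92 ± 0.471 CPM with vehicle (SD, n = 3 each). The log2 fold change was 4.11 (SE 0.161), rank 11 from the highest of the 13357 genes tested. These levels rest on 1243 counts over the forskolin libraries and 80 counts over the vehicle libraries, a ratio of 17.6 with an exact 95% binomial interval (Clopper-Pearson) of 14 to 22.3, which covers counting error only. Leaving out any 1 library gave log2 fold changes of 3.94 to 4.21. No exon base of Liph overlapped another gene. Markers of bile duct epithelium also differed. The 8 cholangiocyte markers summed to 393 to 428 CPM with forskolin and 138 to 153 CPM with vehicle, mainly through Spp1. Of 4 tested, 2 rose and 2 fell. Spp1 was higher at 372 ± 22.6 and 72.5 ± 3.63 CPM, as was Sox9 at 3.45 ± 0.663 and 1.54 ± 0.425 CPM (edgeR adjusted p = 0.00125 for Sox9). Krt19 was lower at 35.1 ± 4.38 and 71.3 ± 4.83 CPM, as was Tm4sf4 at 0.485 ± 0.330 and 1.10 ± 0.229 CPM (edgeR adjusted p = 0.0441 for Tm4sf4). Epcam was at 0.373 and 0.201 CPM and Krt7 at 0 and 0.104 CPM, both near 0. The part of such cells in the Liph values was not tested.

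Enpp2 (chromosome 15, 54838901 to 54920146, minus strand), the autotaxin gene, had 0.182, 0.756 and 0.945 CPM in forskolin A, B and C, against 0.849, 0.804 and 0.591 CPM in vehicle A, B and C. The groups overlapped, with forskolin A lowest. These levels stand on 23.5 counts over the forskolin libraries and 31 over the vehicle libraries, and the ratio of the pooled counts was 0.876 with an exact 95% interval of 0.492 to 1.54. That interval covers counting error only. The sign of the fitted log2 fold change, -0.24 (SE 0.465), turned to 0.46 with log2 library size as a covariate, and lay between -0.64 and 0.16 when 1 library was left out. An antisense gene, Gm26684, overlaps exons of Enpp2, but none within the span of the counted transcript. On the per-kilobase scale Liph was at 8.99 ± 1.30 with forskolin and 0.507 ± 0.124 with vehicle, and Enpp2 at 0.186 ± 0.118 and 0.222 ± 0.0410 (SD, n = 3 each).

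Lpar1 (chromosome 4, 58435252 to 58553293, minus strand), a receptor of the family first named EDG, had 44.4, 41.3 and 46.7 CPM in forskolin A, B and C, against 61.0, 59.5 and 66.1 CPM in vehicle A, B and C. Every forskolin library was below every vehicle library. The log2 fold change was -0.50 (SE 0.0658).

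Lpar6 (chromosome 14, 73237891 to 73240358, plus strand), a receptor related to the P2Y nucleotide receptors, had 22.7, 21.5 and 21.6 CPM in forskolin A, B and C, against 29.9, 33.1 and 29.8 CPM in vehicle A, B and C. Its groups did not overlap either, and its log2 fold change was -0.50 (SE 0.0821). In humans, mutations of either LPAR6 or LIPH cause a form of inherited hair loss, so the receptor and the enzyme are known as a pair. In these cells Liph was higher and Lpar6 lower with forskolin: Liph was at 0.846, 1.00 and 1.19 of the Lpar6 level per kilobase in forskolin A, B and C, against 0.0473, 0.0435 and 0.0301 in vehicle A, B and C. Lpar6 lies within Rb1 on the other strand, and 408 bases of the counted span overlap exons of Rb1. The kit is not stated to keep strand, so reads there cannot be assigned with certainty. Rb1 itself was at 24.3 ± 1.67 CPM with forskolin and 24.8 ± 1.22 CPM with vehicle (SD, n = 3 each; edgeR adjusted p = 0.797).

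Lpar4 (chromosome X, 106920625 to 106933899, plus strand), also of the P2Y-related branch, had 5.47, 7.06 and 4.36 CPM in forskolin A, B and C, against 5.83, 4.99 and 8.03 CPM in vehicle A, B and C. The groups overlapped across most of their range. The log2 fold change was -0.13 (SE 0.206), and leaving out 1 library moved it between -0.35 and 0.08.

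Among the other LPA receptor genes, Lpar2 was at 19.4 ± 0.917 CPM with forskolin and 22.9 ± 0.945 CPM with vehicle (SD, n = 3 each), a log2 fold change of -0.23 (edgeR adjusted p = 0.0361) with no overlap between groups. That call was lost under 9 of 13 alternatives, and over all 13 the adjusted p ranged from 0.0332 to 0.234. Lpar3 had 1 count over the 3 forskolin libraries and 0 over the 3 vehicle libraries, where a count of 0 allows up to 0.0729 CPM (3 counts over the group). Lpar5 had 3 counts with forskolin and 1.5 with vehicle.

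Summed over all LPA receptors, the level per kilobase was 26.6, 26.1 and 26.8 in forskolin A, B and C, against 35.2, 35.8 and 37.4 in vehicle A, B and C. The sum was lower in every forskolin library, and the shares of Lpar1, Lpar4 and Lpar6 differed by less than the larger SD of the groups. Lpar1 held 48.3% ± 2.27 of it with forskolin and 49.9% ± 1.53 with vehicle, and Lpar6 33.6% ± 1.02 and 34.8% ± 2.62 (SD, n = 3 each). Lpar2 held 12.9% ± 0.708 with forskolin and 11.1% ± 0.219 with vehicle. Lpar4 held 5.03% ± 1.30 and 4.09% ± 0.900.

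**Figure D2:**
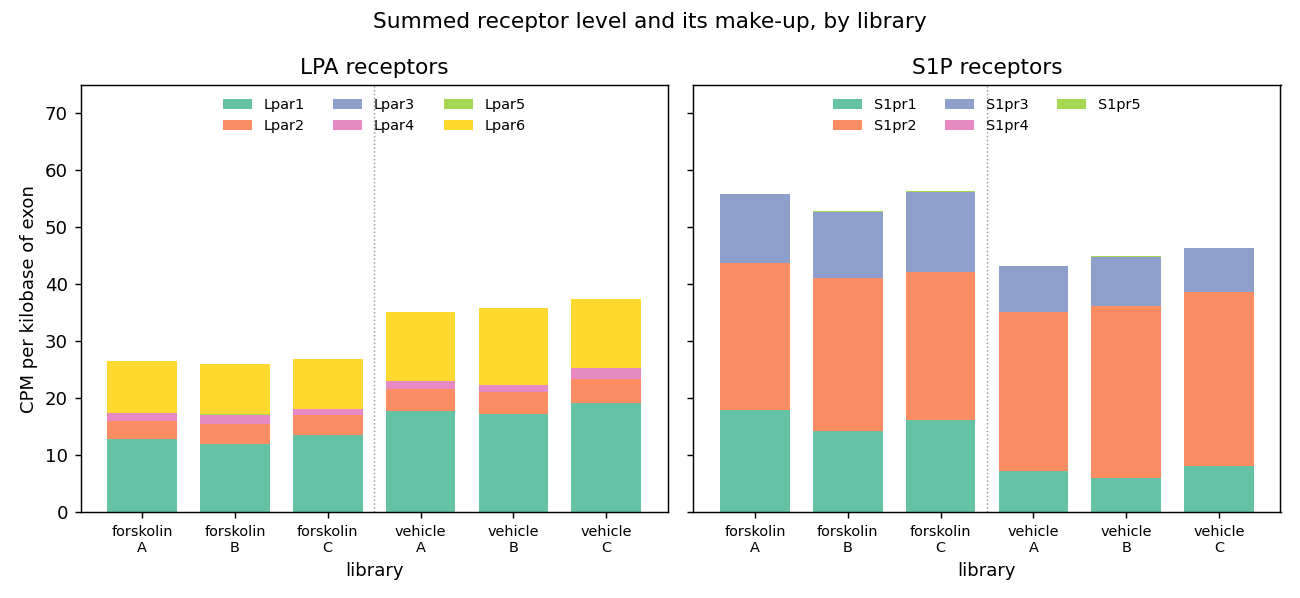
Stacked bars give the level of each LPA receptor gene (left) and S1P receptor gene (right) in CPM per kilobase of exon, 1 bar per library. The LPA receptor sum was 26.1 to 26.8 in the forskolin libraries and 35.2 to 37.4 in the vehicle libraries, and the S1P receptor sum 52.8 to 56.4 and 43.3 to 46.4, with a larger S1pr1 band in each forskolin library.

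S1pr1 (chromosome 3, 115710433 to 115715055, minus strand), a receptor coupled to inhibitory G proteins and the S1P receptor of blood vessel lining and lymphocytes, had 54.3, 43.3 and 49.1 CPM in forskolin A, B and C, against 21.9, 18.5 and 24.8 CPM in vehicle A, B and C. The lowest forskolin library was well above the highest vehicle library. The log2 fold change was 1.18 (SE 0.0998), from 1.07 to 1.28 without any 1 library and 0.84 with log2 library size as a covariate. Markers of liver sinusoidal endothelium also differed. Of 8 tested, 1 rose and 5 fell, and the 14 markers summed to 105 to 110 CPM with forskolin and 242 to 251 CPM with vehicle. Most of that sum was Flt4, at 79.7 ± 1.46 CPM with forskolin and 195 ± 4.24 CPM with vehicle. Stab2 went the same way as S1pr1, at 2.53 ± 0.903 CPM with forskolin and 0.955 ± 0.312 CPM with vehicle (edgeR adjusted p = 0.00412), and Stab1 was at 8.15 ± 1.04 and 7.75 ± 0.657 CPM (edgeR adjusted p = 0.709). The endothelial junction genes Pecam1 and Cdh5 were at 0.412 and 0.433 CPM with forskolin and 0.379 and 0.375 CPM with vehicle, and Emcn was at 0 in all libraries. The part of endothelial RNA in the S1pr1 values was not tested.

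S1pr3 (chromosome 13, 51408618 to 51422797, plus strand), a receptor with broad G protein coupling, had 54.0, 51.8 and 63.4 CPM in forskolin A, B and C, against 35.9, 39.0 and 34.5 CPM in vehicle A, B and C. The groups did not overlap. The log2 fold change was 0.63 (SE 0.0784). An antisense gene model, Gm32834, overlaps 45 of its exon bases.

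S1pr2 (chromosome 9, 20965952 to 20976793, minus strand), a receptor that couples to several G protein classes, had 72.7, 75.5 and 72.9 CPM in forskolin A, B and C, against 78.6, 84.4 and 85.5 CPM in vehicle A, B and C. The groups did not overlap but lay close together. The log2 fold change was -0.17 (SE 0.0528).

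The mixture of S1P receptor genes differed between the groups. Their summed level per kilobase was 55.9, 52.8 and 56.4 in forskolin A, B and C, against 43.3, 44.9 and 46.4 in vehicle A, B and C. S1pr1 held 29.3% ± 2.54 of the sum with forskolin and 16.0% ± 2.11 with vehicle (SD, n = 3 each). S1pr3 held 22.8% ± 1.95 and 18.2% ± 1.42. S1pr2 remained the most abundant S1P receptor gene in every library but held 47.7% ± 2.75 with forskolin and 65.6% ± 1.14 with vehicle. The level of S1pr1 relative to S1pr2 was 0.694, 0.533 and 0.626 in forskolin A, B and C, against 0.259, 0.204 and 0.269 in vehicle A, B and C. S1pr4 had 0.5 counts over the forskolin libraries and 4 over the vehicle libraries, and S1pr5 had 5.5 and 5, so neither could be compared at this depth. The receptors of related lysophospholipids were all below the filter, the 6 genes summing to 0.411 to 0.775 CPM per forskolin library and 0.670 to 0.984 CPM per vehicle library.

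Sphk1 (chromosome 11, 116532444 to 116536675, plus strand), the kinase gene, had 55.4, 53.8 and 54.5 CPM in forskolin A, B and C, against 57.9, 61.4 and 59.2 CPM in vehicle A, B and C. The groups did not overlap, and the difference was small, with a log2 fold change of -0.13 (SE 0.0566). An antisense gene, Gm29292, overlaps 192 bases in the counted span.

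Sgpl1 (chromosome 10, 61098642 to 61147684, minus strand), the lyase gene, had 266, 245 and 241 CPM in forskolin A, B and C, against 295, 298 and 298 CPM in vehicle A, B and C. It was lower in every forskolin library, with a log2 fold change of -0.25 (SE 0.0434). Per kilobase the kinase gene was at 0.459, 0.484 and 0.498 of the lyase gene in forskolin A, B and C, against 0.432, 0.454 and 0.438 in vehicle A, B and C, so the lyase gene was the more abundant in each library.

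Ordered by level per kilobase, Sgpl1 stood highest with forskolin, at 60.8 ± 3.20, followed by Sphk1 at 29.2 ± 0.420, S1pr2 at 26.2 ± 0.567 and S1pr1 at 16.2 ± 1.82 (SD, n = 3). Lpar1 and S1pr3, at 12.8 ± 0.791 and 12.6 ± 1.37, overlapped, as did Liph and Lpar6 at 8.99 ± 1.30 and 8.90 ± 0.277. Lpar4 at 1.33 ± 0.322 and Enpp2 closed the order. With vehicle the first 3 places were the same, at 72.0 ± 0.356, 31.8 ± 0.960 and 29.5 ± 1.32, and Lpar1 and Lpar6 came next at 18.1 ± 1.01 and 12.6 ± 0.755. S1pr3 and S1pr1 overlapped at 8.14 ± 0.509 and 7.18 ± 1.04, and Liph, at 0.507 ± 0.124, stood below Lpar4 at 1.48 ± 0.371.

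**Figure D3:**
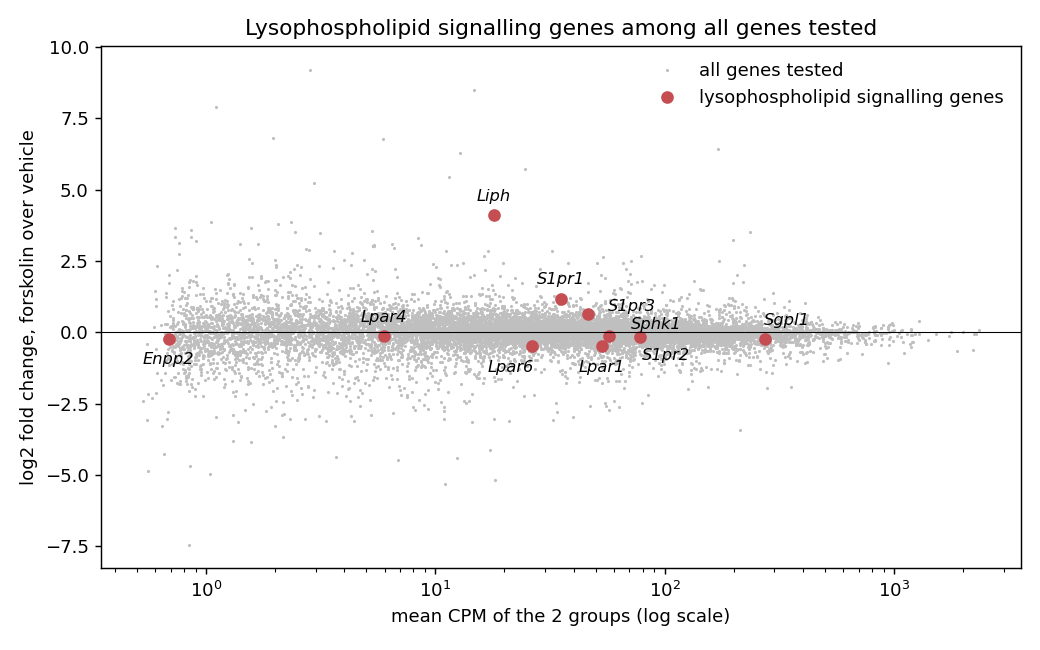
Log2 fold change, forskolin over vehicle, against the mean CPM of both groups on a log scale, for the 13357 genes tested (grey) and the lysophospholipid signalling genes (red). Liph stood at 4.11, S1pr1 at 1.18 and the other genes between -0.50 and 0.63.

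The remaining genes of the pathway were taken by role, 83 genes of which 64 were tested. Of these, 12 rose and 27 fell (edgeR, adjusted p under 0.05 over all genes tested), together 60.9%, beside 49.9% of all genes tested, and their median log2 fold change was -0.09. Among genes of LPA production 0 of 5 tested rose and 1 fell: Ddhd1, a phospholipase gene whose product acts on phosphatidic acid, was at 24.8 ± 1.80 CPM with forskolin and 30.9 ± 1.97 CPM with vehicle (adjusted p = 0.00427, lost with log2 library size as a covariate at 0.203). Pla1a, of the same lipase family as Liph and also named after its values were seen, was at 20.1 ± 2.32 and 20.5 ± 0.624 CPM (adjusted p = 0.85).

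LPA removal and acylation had 2 of 17 tested genes higher and 7 lower. The higher genes, named after their values were seen, were Acp6 and Agpat2. Their log2 fold changes were 0.57 and 0.23 (edgeR adjusted p = 2.67e-05 and 0.0226). The groups overlapped for Agpat2 but not for Acp6. The lysophospholipid acyltransferase genes Lclat1 and Lpcat1 fell to 77.1 ± 3.88 and 12.5 ± 1.95 CPM with forskolin, against 134 ± 7.56 and 28.0 ± 0.832 CPM with vehicle (log2 fold changes -0.80 and -1.17, edgeR adjusted p = 7.38e-10 and 4.51e-08). Plpp1, which encodes a phosphatase that removes the phosphate of LPA and S1P, fell to 102 ± 4.62 CPM with forskolin, against 130 ± 2.01 CPM with vehicle (edgeR adjusted p = 6.71e-06). Its relatives Plpp2 and Plpp3, named after their values were seen, were at 107 and 146 CPM with forskolin and 114 and 141 CPM with vehicle, and neither passed (adjusted p = 0.132 and 0.46 by edgeR).

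S1P production and removal had 2 of 7 tested genes higher and 3 lower. Cerk, the ceramide kinase gene, was counted among the higher, though the substrate of its product is ceramide and not sphingosine. It was at 221 ± 7.73 CPM with forskolin and 136 ± 4.50 CPM with vehicle (log2 fold change 0.70, edgeR adjusted p = 3.11e-10). Sgpp1, an S1P phosphatase gene, rose to 90.7 ± 4.77 CPM with forskolin, against 66.4 ± 1.78 CPM with vehicle (edgeR adjusted p = 1.74e-06). The acid ceramidase gene Asah1 was lower, at 202 ± 4.62 and 240 ± 5.27 CPM (edgeR adjusted p = 7.66e-05). Sphk2, the other sphingosine kinase gene, was at 44.1 ± 2.26 CPM with forskolin and 51.8 ± 2.62 CPM with vehicle (edgeR adjusted p = 0.0064), a call lost without vehicle B (0.0533) and with log2 library size as a covariate (0.255).

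S1P export and carriage had 5 tested genes, 2 higher and 3 lower. Abca1, a lipid exporter gene better known for cholesterol, rose to 95.1 ± 8.20 CPM with forskolin, against 32.9 ± 2.82 CPM with vehicle (log2 fold change 1.54, edgeR adjusted p = 5.88e-12), and the transporter gene Abcc1 to 410 ± 36.4 against 289 ± 3.52 CPM (adjusted p = 2.19e-07). Mfsd2a, a transporter gene for lysophosphatidylcholine, fell to 3.12 ± 0.954 CPM with forskolin, against 9.75 ± 0.407 CPM with vehicle (edgeR adjusted p = 1e-06). Spns2, the dedicated S1P exporter gene, was named after its values were seen. It had 2.51, 0.604 and 2.79 CPM in forskolin A, B and C, against 6.72, 5.59 and 6.65 CPM in vehicle A, B and C (log2 fold change -1.70, edgeR adjusted p = 0.000121). That log2 fold change was -2.34 with log2 library size as a covariate and -1.23 without forskolin B, its lowest library, and it lay between -2.06 and -1.23 over all sets that left out 1 library. The call held under each of the 13 alternatives, with adjusted p of 6.42e-14 to 0.00147.

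Ceramide synthesis, which supplies the sphingosine backbone, had 2 of 14 tested genes higher and 8 lower. These counts take enzymes and regulators together, so they give no direction for the synthesis itself. Ormdl3, a regulator of its first enzyme, fell to 69.1 ± 2.39 CPM with forskolin, against 108 ± 0.479 CPM with vehicle (edgeR adjusted p = 3.53e-09), and the ceramide synthase genes Cers4 and Cers6 by 0.54 and 0.51 on the log2 scale (adjusted p = 4.62e-07 and 2.51e-05). Genes of the G proteins and downstream effectors that the receptors use were divided, 4 of 15 higher and 4 lower. Gnai1, an inhibitory G protein subunit gene, fell to 27.1 ± 1.95 CPM with forskolin, against 60.0 ± 2.88 CPM with vehicle (log2 fold change -1.15, edgeR adjusted p = 2.22e-10), and the protein kinase gene Rock1 to 160 ± 5.78 against 241 ± 9.27 CPM (adjusted p = 3.34e-09). The small GTPase gene Rhob rose by 0.28 on the log2 scale (edgeR adjusted p = 2.3e-05).

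**Figure D4:**
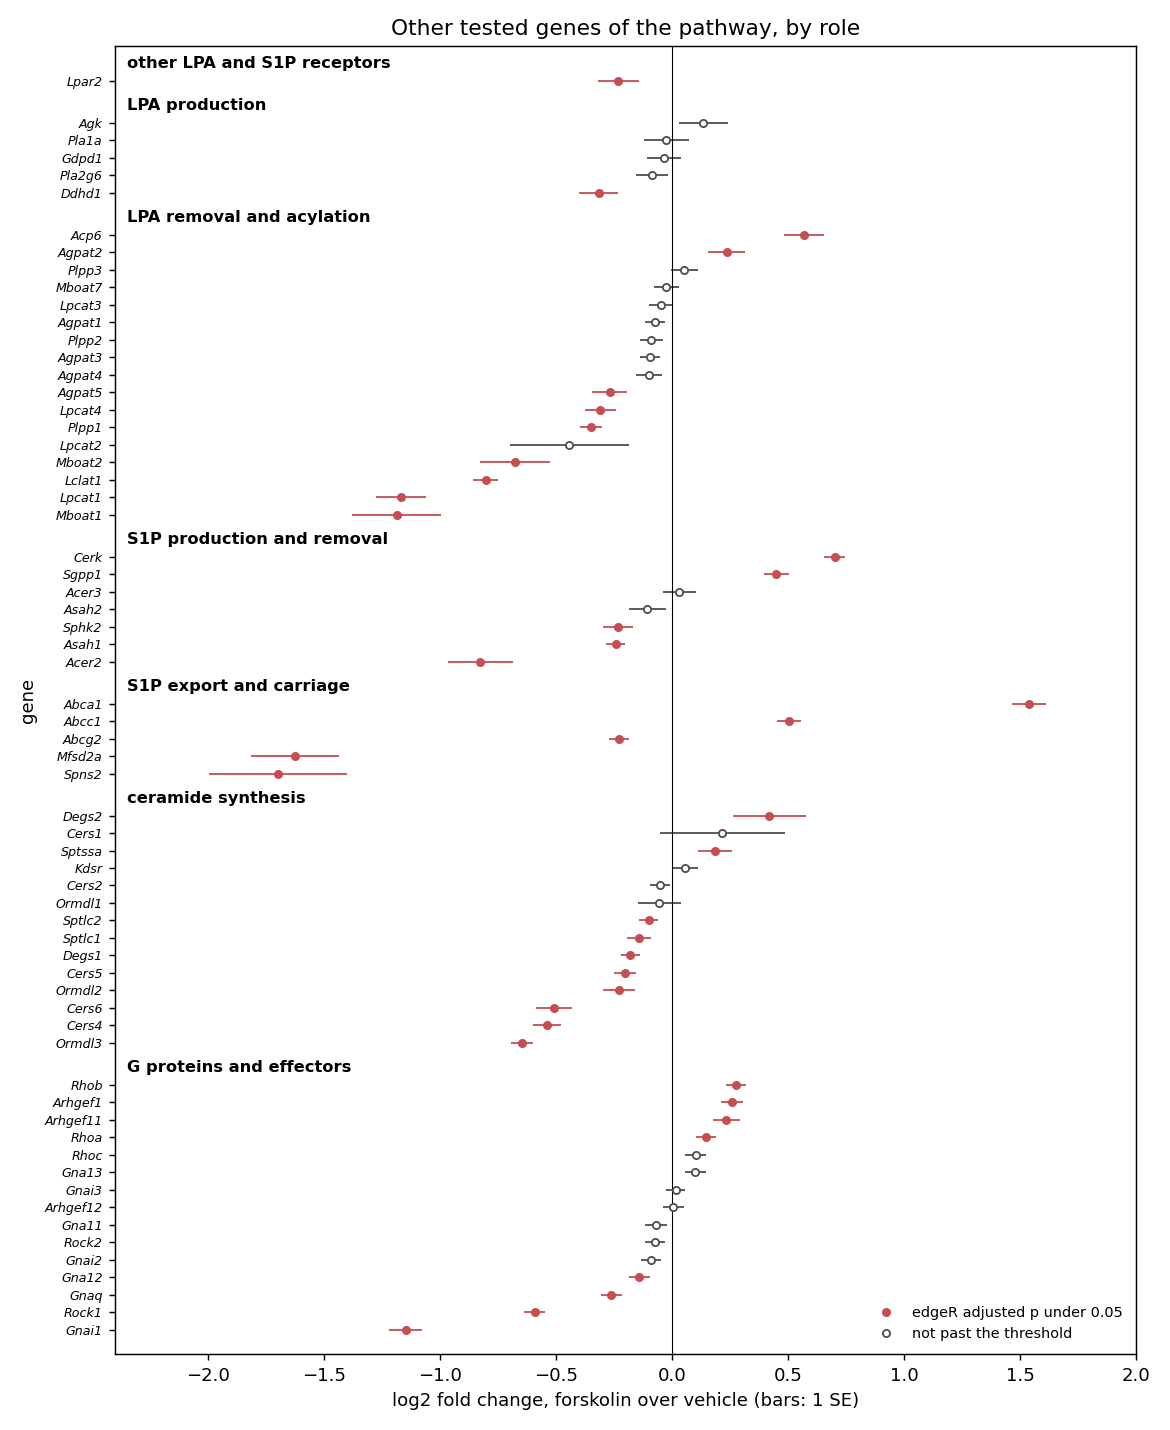
Log2 fold changes, forskolin over vehicle, of the 64 tested pathway genes grouped by role, with bars of 1 SE from the edgeR fit and filled points past the threshold. Abca1 at 1.54 and Spns2 at -1.70 mark the ends, both among genes of S1P export and carriage. The lists of LPA removal and acylation and of ceramide synthesis hold more filled points below 0 than above it.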

How the data were processed

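Polyadenylated RNA of 3 forskolin and 3 vehicle libraries was sequenced; per the labels' protocols the libraries were built with NEBNext Ultra reagents. The authors deposited unnormalized estimated counts (expected counts) per gene over the exons of 1 RefSeq transcript each, made with STAR and HOMER on mm10 per the submitters' processing notes. Their versions were not given in the sources used here. Those values are multiples of 0.5, 31.8% of them not whole, and were rounded for the tests.

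With edgeR 4.0.16 in R 4.3.3, filterByExpr (minimum count 10, minimum total 15) left 13357 genes, which were scaled by TMM and compared by the two-sided quasi-likelihood test, with no covariate beside the group. P-values were adjusted by Benjamini-Hochberg over all genes tested, with a threshold of 0.05. The SE comes from the F statistic. The fit was tested on simulated data. CPM used the unrounded counts on TMM-scaled library sizes, divided by the deposited exon length for CPM per kilobase. Replicates within each group differed by more than sampling noise. Pairs of forskolin libraries were at 3.18 to 4.79 times the binomial variance per gene, and pairs of vehicle libraries at 1.68 to 2.22 times. Exon overlaps were read from GENCODE M21 on the same build, and promoters from RefSeq. A comparison of receptor proteins was not made.

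The genes described and the role and marker lists were chosen with earlier results of these data known. From each role list up to 3 genes past the threshold with the smallest adjusted p were named. So were all LPA and S1P receptors and Sphk2. Acp6, Agpat2, Pla1a, Plpp2, Plpp3 and Spns2 were added after their values were seen. Alternatives were other scalings and filters, DESeq2 1.42.0, the replicate block, log2 library size as a covariate and leaving out each library.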

Additional observations from a re-analysis of the deposited data

How the results depend on the processing

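Over the 13 alternatives, the count of all genes past the threshold (6668) was 4297 with log2 library size as a covariate, every vehicle library being deeper than every forskolin library; the cause was not tested. Without TMM factors, scaled by library totals, it was 6862, of which 3988 were higher and 2874 lower (58.1% higher, against 49.8% with TMM). Leaving out 1 library gave 5640 to 6800 genes, and DESeq2 gave 5571. Of the other pathway genes 39 passed, 30 with the library size covariate, and 32 to 40 with 1 library left out. Of the 10 lysophospholipid genes 6 or 7 passed under every alternative, a count added after the data were seen. The filter of at least 1 CPM in 3 libraries left 9 of them, without Enpp2. As the choice of the genes used this comparison, nothing is read from that count. No called lysophospholipid gene changed direction. The log2 fold changes of these genes moved by more than the spread between replicates in 4 comparisons. These were Sphk1 without TMM factors, and Lpar1, S1pr1 and Sgpl1 with the library size covariate. They moved by less in 125, but leaving out 1 library could hardly exceed a spread set by the same libraries. With the replicate letter as a block, 6675 genes and 42 other pathway genes passed. The deviations of same-lettered libraries correlated by 0.0257 to 0.0343, above those of libraries with different letters, at -0.0515 to 0.0197. As all were near 0, the letters were not taken as pairs, but pairing is not excluded. Receptor shares moved by more than the SD of their group in 9 comparisons, all without division by exon length, and by less in 79. Most of the 79 left out 1 library. A group mean cannot move past the SD of the same libraries in that way, so no stability is read from them. Named pathway genes lost a call in 12 comparisons, all of Lpar2, Sphk2 or Ddhd1, and kept their side of the threshold in 235. Depth limits Enpp2, Lpar3, Lpar5, S1pr4 and S1pr5.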
